A study of Mus musculus with 6 samples.

Results

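A set of 9 erythroid lineage genes was examined in mouse leukemia stem cells, cells that can start the leukemia again in a new host. They were chosen by symbol from the 53735 genes of the deposited table and comprise the adult alpha globin genes Hba-a1 and Hba-a2, the adult beta globin genes Hbb-bs and Hbb-bt, and Klf1, Epor, Alas2, Ermap and Rhag. All 9 symbols were found. Transcripts were measured by RNA sequencing in 3 liver and 3 bone marrow libraries, all labelled as leukemia stem cells from male C57 mice, taken without further treatment 13 days after leukemia cells had been transplanted. The leukemia model, the markers used to sort the cells and the number of animals are not given in the labels. Within a tissue the libraries carry the label of technical replicates, and no label ties a library to an animal, so the p-values measure the spread between these libraries.

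Red cell precursors fill themselves with hemoglobin, a tetramer of alpha and beta globin chains that each hold a heme group. Erythropoietin acts through its receptor Epor and the kinase Jak2 to keep these precursors alive, the zinc finger factor Klf1 switches on the adult beta globin gene and many membrane genes by binding CACCC elements, and Alas2 makes the first intermediate of heme in the erythroid lineage. Ermap and Rhag are red cell membrane proteins. Several factors of this program, among them Gata1, are shared with megakaryocytes, basophils and mast cells.

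Depth was 9.73 to 13.8 M reads in liver and 15.4 to 18.5 M reads in bone marrow. The unit throughout is the normalized count, a read count divided by 1 size factor per library. A single read equalled 0.988 to 1.42 normalized counts in the liver libraries and 0.744 to 0.898 in those of bone marrow. The replicates numbered 1 and 3 went against the common label of male mice. The noncoding RNA Xist, made from the inactive X of females, reached 6229 normalized counts in liver replicate 1 and 4860 in bone marrow replicate 1, where 4 Y-linked genes summed to 0 and 145. In the replicates numbered 2 Xist was at 1.42 in liver and 4.28 in bone marrow, and the Y-linked sum at 2675 and 2987. The replicates numbered 3 held both, with Xist at 2425 in liver and 2486 in bone marrow and the Y-linked sum at 1634 and 1553. Each of these values of replicate 3 lies between those of replicates 1 and 2 of the same tissue. Replicates 1 and 2 of a tissue are therefore not repeat libraries of 1 sample. Whether replicate 3 is independent of them or a mix of both was not tested. The SDs, SEs, p-values and statements of overlap below count it as a sample of its own. Markers of stem and progenitor cells were present, with a summed level of 28405 to 32611 in liver and 34429 to 34936 in bone marrow. They were led by Gata2, which averaged 12022 in liver and 14025 in bone marrow, and Myb. Of 11 hepatocyte markers in the table, 8 averaged under 1 normalized count, with 0 reads of Alb in any library, and the list summed to 2365 to 3300 in liver and 2705 to 5703 in bone marrow, led by Apoa1 and Hp. Monocyte and macrophage markers, led by Cd68 and Ccr2, summed to 1888 to 4443 in liver and 2534 to 3429 in bone marrow. Those of Kupffer cells, the macrophages of the liver, and of similar macrophages, led by Cd163 and Spic, summed to 118 to 170 in liver and 114 to 160 in bone marrow, with Clec4f, Vsig4, Timd4 and Cd5l averaging under 1. Sinusoidal endothelial markers, led by Pecam1 and Egfl7, summed to 572 to 1585 in liver and 497 to 1266 in bone marrow, with 6 of 8 averaging under 1. B and T cell markers, led by Cd79b and Trac, summed to 22.7 to 69.6 in liver and 69.1 to 107 in bone marrow, with 6 of 10 averaging under 1.

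The upstream sequences of Hbb-bt, Hbb-bs, Hba-a2 and Rhag are shown first, because the beta globin copies and Rhag were the members whose tissues did not overlap and the alpha globin copies are the contrast to them. Each is the 120 bases before the RefSeq start, read 5′ to 3′ on the gene's own strand (RefSeq, GRCm38.p6), and all 9 members matched an entry of that table. Capitals mark matches on either strand to GATAA (the GATA factor core), CCNCNCCC (a CACCC-type element of the kind Klf1 binds), CCAAT and TATAA. Hbb-bt lies at chr7:103813924-103814043 and Hbb-bs at chr7:103827929-103828048, both on the minus strand, Hba-a2 at chr11:32296372-32296491 and Rhag at chr17:40811029-40811148, both on the plus strand. The GENCODE gene positions given further below start elsewhere. By them the Hbb-bs window lies wholly inside its gene, and those of Hbb-bt, Hba-a2 and Rhag in part.
Hbb-bt: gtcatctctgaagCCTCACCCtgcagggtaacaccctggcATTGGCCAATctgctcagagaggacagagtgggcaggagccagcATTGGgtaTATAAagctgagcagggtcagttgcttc
Hbb-bs: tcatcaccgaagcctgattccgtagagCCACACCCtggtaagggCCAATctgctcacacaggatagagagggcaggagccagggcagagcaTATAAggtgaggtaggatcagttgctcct
Hba-a2: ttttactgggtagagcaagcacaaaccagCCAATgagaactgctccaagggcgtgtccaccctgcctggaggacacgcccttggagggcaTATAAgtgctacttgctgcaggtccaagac
Rhag: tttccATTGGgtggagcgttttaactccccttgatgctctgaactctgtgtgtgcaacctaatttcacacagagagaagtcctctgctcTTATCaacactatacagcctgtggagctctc

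Both beta globin windows held 1 match to CCNCNCCC, 100 to 107 bases before the start in Hbb-bt and 86 to 93 bases before it in Hbb-bs, and neither the alpha globin windows nor that of Rhag held one. Rhag held GATAA on the opposite strand 27 to 31 bases before its start. TATAA was found in all 4 globin windows and CCAAT in all 4 and in Rhag. Hbb-bt held 2 further CCAAT matches on the opposite strand, 1 of them directly beside the forward match with no base shared. Among 32851 windows of the same length in the table, 34.6% held CCNCNCCC, 10.5% GATAA, 21.3% CCAAT and 11.8% TATAA. Windows that are not printed held such matches too. Those of Epor and Alas2, which overlapped between the tissues, held matches of the CACCC type. Those of Klf1, Epor, Alas2 and Ermap held the GATA factor core, each on the opposite strand as in Rhag. Neither match therefore set apart the members whose tissues did not overlap. All these matches are descriptions of the letters in these windows and not binding sites. The Hba-a1 window is not printed because it repeats that of Hba-a2 with a shift of 3 bases. Over the 250 bases before the start, 247 were identical with 0 mismatches between the alpha copies, against 182 identical and 60 mismatched bases between the beta copies.

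The first comparison asks whether leukemia stem cells from liver carry erythroid transcripts at other levels than those from bone marrow. Beta globin and Rhag were lower in every liver library than in every bone marrow library, while alpha globin, Klf1, Epor and Alas2 overlapped between the tissues. The mean liver level was 54.5% of the bone marrow mean for Hbb-bt, 34.3% for Hbb-bs and 35.9% for Rhag. None of the 8 members tested passed an adjusted p of 0.05 in limma, where 1.01% of 14298 genes passed. Ermap fell below the filter of a mean of 10 normalized counts and was not tested. At an unadjusted p under 0.05 there were 3 members, Hbb-bt, Hbb-bs and Rhag, where 15.7% of all genes were under it. DESeq2 called these 3, all lower in liver, where it called 4.35% of all genes and 2.43% as lower. edgeR called 0 of the members and 0.944% of all genes. Without liver replicate 1 limma called 2, Hbb-bt and Rhag. That fit called 433 of all 14298 genes, against 145 with all 6 libraries. With the replicate number as a block, limma called Hbb-bt, Hbb-bs and Rhag (adjusted p = 0.0051, 0.019 and 0.017) and 525 of all genes. No label pairs the libraries, so the main fit left the block out. With the block and without both replicate 3 libraries, 0 members and 16 of all genes passed. The tissues did not overlap in these 3 of 8 members (37.5%), all lower in liver. Of all genes tested, 22.3% did not overlap in either direction and 10.9% did not overlap and were lower in liver. In a bulk sample, fewer cells of a type and less RNA per cell cannot be told apart.

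**Figure D1:**
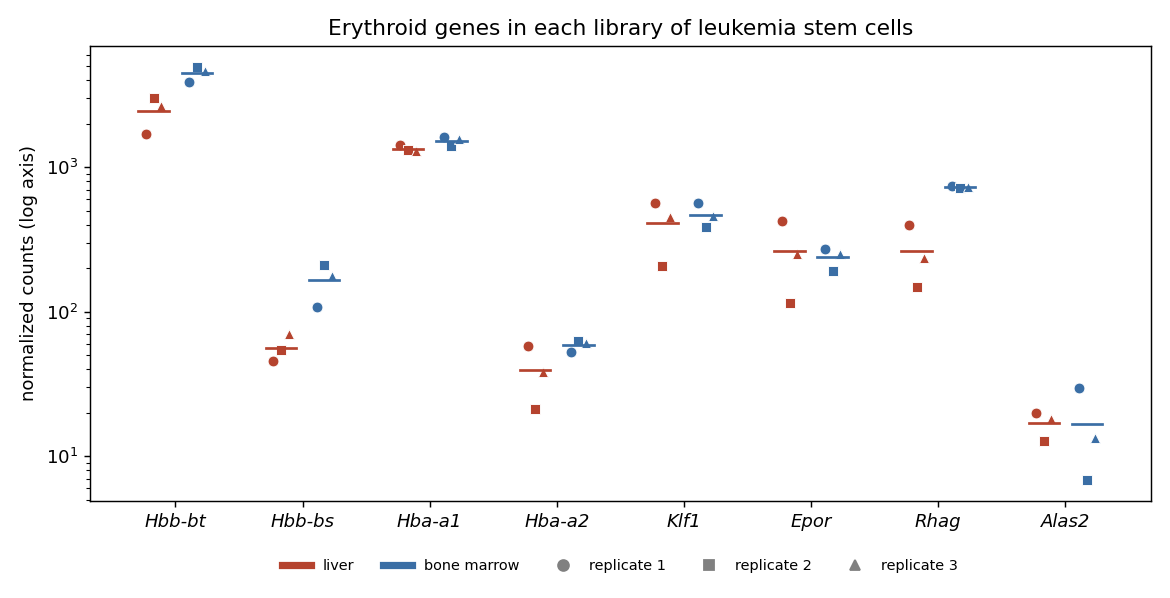
Normalized counts (log axis) of the 8 tested members in each library, liver in red and bone marrow in blue, with the replicate number as the symbol and the mean of 3 libraries as a line. Hbb-bt, Hbb-bs and Rhag lie lower in each liver library than in any bone marrow library, and the other members overlap.

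Hbb-bt, the more abundant beta globin copy, measured 1696, 3019 and 2662 normalized counts in the replicates 1, 2 and 3 of liver, against 3908, 4960 and 4656 in the bone marrow replicates. The highest liver library thus lay below the lowest bone marrow library. The log2 fold change was -0.91 ± 0.20 (SE, limma adjusted p = 0.097). Hbb-bs, the second adult beta globin copy, held 45.4, 54.0 and 69.8 normalized counts in the liver libraries. In bone marrow it held 107.7, 210.6 and 175.5. Behind them stand 142 liver reads and 602 bone marrow reads, and again no liver library reached the lowest bone marrow library. Its log2 fold change was -1.50 ± 0.29 (SE, limma adjusted p = 0.071). Hbb-bt lies on chromosome 7 from 103812524 to 103813996 and Hbb-bs from 103826534 to 103828096, both on the minus strand (GENCODE M21, GRCm38).

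Alpha globin differed less. Hba-a1, which gave nearly all alpha globin reads, stood at 1418, 1308 and 1302 normalized counts in liver, against 1615, 1397 and 1555 in bone marrow. Liver replicate 1 lay above bone marrow replicate 2, so the tissues overlapped. The log2 fold change was -0.18 ± 0.078 (SE, limma adjusted p = 0.32). Hba-a2 held 58.3, 21.3 and 38.5 normalized counts in the liver libraries and 53.0, 62.5 and 61.0 in bone marrow, with a log2 fold change of -0.67 ± 0.37 (SE, limma adjusted p = 0.45). Its liver values rest on 106 reads and spread 2.73-fold between libraries. Hba-a1 lies on chromosome 11 from 32283511 to 32284465 and Hba-a2 from 32296489 to 32297298, both on the plus strand.

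The copies of each pair share sequence, the alpha copies more than the beta copies, and how reads that match both were counted is not given in the sources used here. Of the 50-base windows of annotated Hba-a2 transcripts, 89.3% also occur in Hba-a1, and of those of Hbb-bs 53.2% occur in Hbb-bt. The division of reads between copies is therefore uncertain: Hba-a2 took 2.81% ± 1.17 of alpha globin in liver and 3.74% ± 0.55 in bone marrow, and Hbb-bs 2.31% ± 0.48 of beta globin in liver and 3.46% ± 0.71 in bone marrow (SD, n = 3 each). The sums of the copies do not depend on that division. They would be too low, more so for alpha globin, if reads that match both copies were left out of the counts. Summed alpha globin was 1382 ± 81.9 normalized counts in liver and 1581 ± 108 in bone marrow (SD, 3 libraries each), with a log2 fold change of -0.19 ± 0.078 (SE, limma adjusted p = 0.29). For summed beta globin the levels were 2516 ± 692 in liver and 4673 ± 594 in bone marrow (SD, 3 libraries each), with a log2 fold change of -0.93 ± 0.20 (SE, limma adjusted p = 0.093). The beta sum passed with DESeq2 (adjusted p = 0.00017) and in limma without liver replicate 1 (log2 fold change -0.68, adjusted p = 0.027). It also passed in limma with the replicate number as a block (adjusted p = 0.0043).

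The balance of the chains was compared within each library, where the size factor cancels. Alpha globin made up 45.9%, 30.2% and 32.9% of adult globin counts in liver replicates 1, 2 and 3, against 29.3%, 22.0% and 25.1% in the bone marrow replicates. Each liver library lay above each bone marrow library, the nearest pair being 30.2% in liver and 29.3% in bone marrow. The mean difference was 10.8 percentage points (two-sided exact permutation test, p = 0.1, the smallest that 3 against 3 libraries allow). These shares are of counts and are not corrected for transcript length or for reads that match both copies of a pair. All adult globin reads together took 0.0284% ± 0.0043 of a library in liver and 0.0453% ± 0.0036 in bone marrow (SD, n = 3 each, exact permutation p = 0.1).

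**Figure D2:**
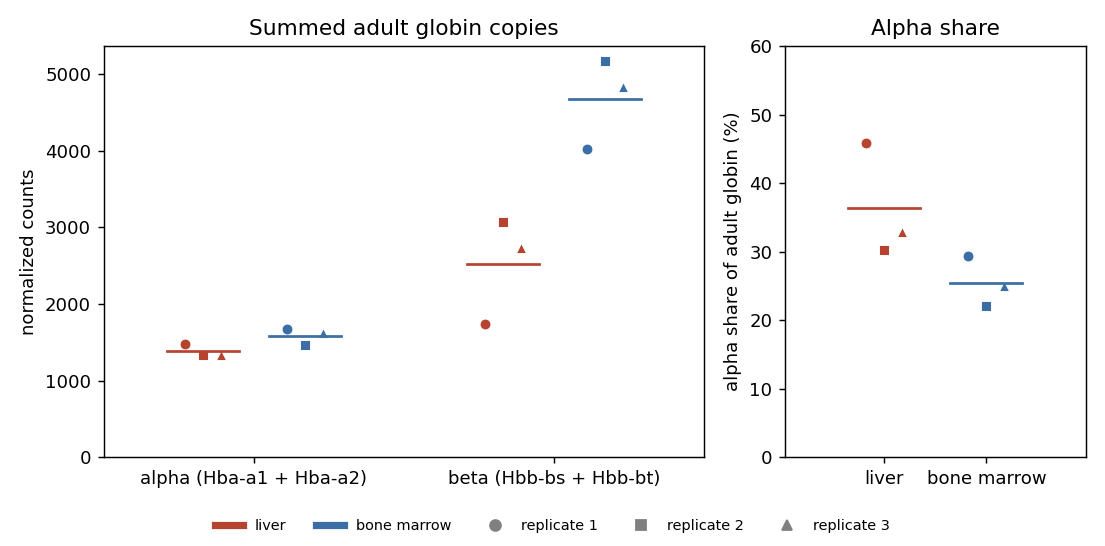
Left, summed normalized counts of the alpha and of the beta globin copies in each library. Right, the share of alpha globin in adult globin counts (%). Liver is red, bone marrow blue, and lines are means of 3 libraries. Beta globin averaged 2516 in liver and 4673 in bone marrow, and the alpha share averaged 36.3% in liver and 25.5% in bone marrow.

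Embryonic globins and 4 other erythroid genes had few or no reads in both tissues. The embryonic genes Hbb-y, Hbb-bh1 and Hba-x had 6, 3 and 0 reads over all 6 libraries. Slc4a1, the anion exchanger band 3 of the red cell membrane, Pklr, the red cell pyruvate kinase gene, and the erythroid genes Trim10 and Cldn13 had 0 reads, which allows up to 2.96 to 4.26 normalized counts per liver library and 2.23 to 2.69 per bone marrow library at a limit of 3 reads. Each gene of this paragraph was picked once its values were known.

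Rhag, the Rh-associated glycoprotein that carries the Rh complex of the red cell membrane, held 400.1, 149.2 and 233.6 normalized counts in liver replicates 1, 2 and 3. The bone marrow libraries held 738.9, 715.9 and 727.9. The highest liver library lay far below the lowest bone marrow library, and the liver libraries spread 2.68-fold while those of bone marrow were within 1.03-fold of each other. The log2 fold change was -1.59 ± 0.31 (SE, limma adjusted p = 0.070). It passed with DESeq2 and, in limma, without liver replicate 1 (log2 fold change -1.96, adjusted p = 0.0044). In limma with the replicate number as a block it passed too (adjusted p = 0.017). The Rhag gene is on the plus strand of chromosome 17, positions 40811126 to 40840754. Ermap, an immunoglobulin superfamily protein of the erythroblast membrane that carries the Scianna blood group in humans, had 5 reads in liver replicate 1 and 0 in each of the other 5 libraries. Its gene is on the minus strand of chromosome 4, positions 119175457 to 119190011.

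**Figure D3:**
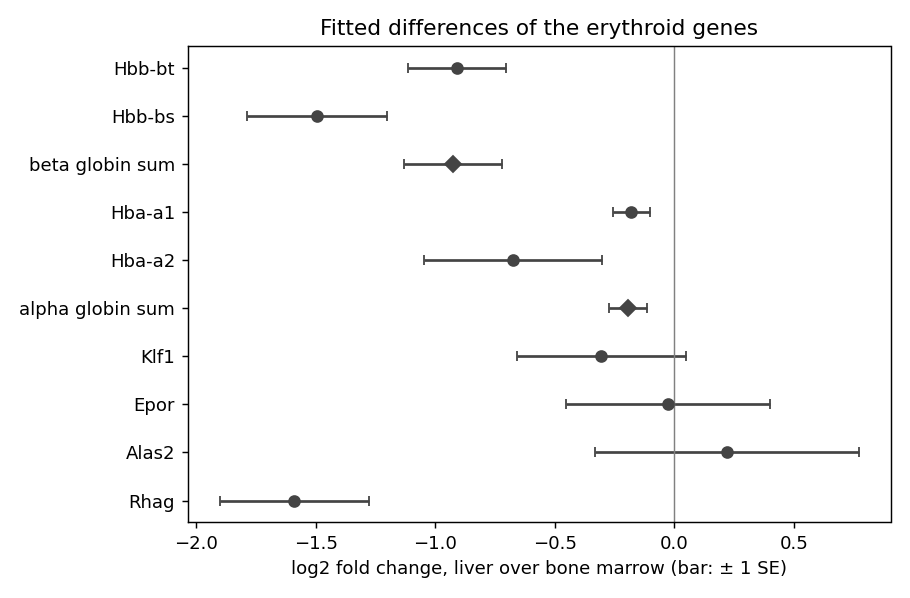
Log2 fold change of liver over bone marrow for each tested member (circles) and for the sums of the globin copies (diamonds), with bars of 1 SE from limma. Rhag (-1.59) and Hbb-bs (-1.50) lie farthest to the left, and Epor (-0.02) lies at 0.

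Klf1 reached 564.1, 206.1 and 455.2 normalized counts in the liver libraries and 567.4, 387.0 and 455.8 in bone marrow. Replicate 1 and replicate 3 had nearly the same level in the 2 tissues, and liver replicate 2 lay below all other libraries. The log2 fold change was -0.31 ± 0.35 (SE, limma adjusted p = 0.74), and without liver replicate 2 it was 0.13. Epor, the erythropoietin receptor, held 422.9, 115.1 and 251.7 in liver and 271.1, 190.1 and 250.6 in bone marrow. The liver libraries enclosed those of bone marrow, with a log2 fold change of -0.02 ± 0.43 (SE, limma adjusted p = 0.99) that was 0.16 with edgeR, 0.15 with DESeq2 and 0.47 without liver replicate 2. Klf1 occupies positions 84901928 to 84905291 of chromosome 8 (plus strand) and Epor positions 21958897 to 21963506 of chromosome 9 (minus strand).

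Alas2 was low, with 19.8, 12.8 and 18.1 normalized counts in the liver libraries and 29.6, 6.85 and 13.4 in bone marrow. It had 44 liver reads and 59 bone marrow reads, the tissues overlapped, and the log2 fold change was 0.22 ± 0.55 (SE, limma adjusted p = 0.89), or -0.25 without bone marrow replicate 2. Alas2 lies on chromosome X from 150547375 to 150570638 on the plus strand, and 372 of its exon bases overlap exons of Apex2 and Mir3620 on the other strand. The library kit does not mark strand, so reads of these genes cannot be told apart there.

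Within each tissue, Klf1, Epor and Alas2 were highest in replicate 1 and lowest in replicate 2, whereas Hbb-bt was lowest in replicate 1 and highest in replicate 2. In liver, replicate 1 exceeded replicate 2 by 2.74-fold for Klf1, 3.67-fold for Epor and 2.68-fold for Rhag. The erythroid and megakaryocyte factor Gata1, chosen after its values were seen, had 2233, 823 and 1435 normalized counts in the liver libraries and 1968, 1283 and 1605 in bone marrow, the same order in each tissue. The summed level of 16 megakaryocyte and platelet markers, led by Itga2b and Pf4, had that order too, with 42804, 18833 and 27936 in liver replicates 1, 2 and 3 and 41135, 34676 and 36493 in bone marrow. The summed level of 12 neutrophil markers, led by Ctsg and Mpo, had the opposite order in both tissues, with 946, 5997 and 3835 in liver and 410, 658 and 566 in bone marrow, and was higher in each liver library than in any bone marrow library. The summed level of 12 basophil and mast cell markers, led by Tph1 and Hdc, did not overlap between the tissues, at 9738 to 16481 in liver and 24878 to 29143 in bone marrow. Its markers did not all go the same way. Prss34 averaged 2546 in liver and 207 in bone marrow, and Mcpt8 1714 and 925. The other markers of this list averaged lower in liver, among them Tph1 with 1249 against 10109 in bone marrow. The part of these cells in the levels of the erythroid genes was not tested.

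**Figure D4:**
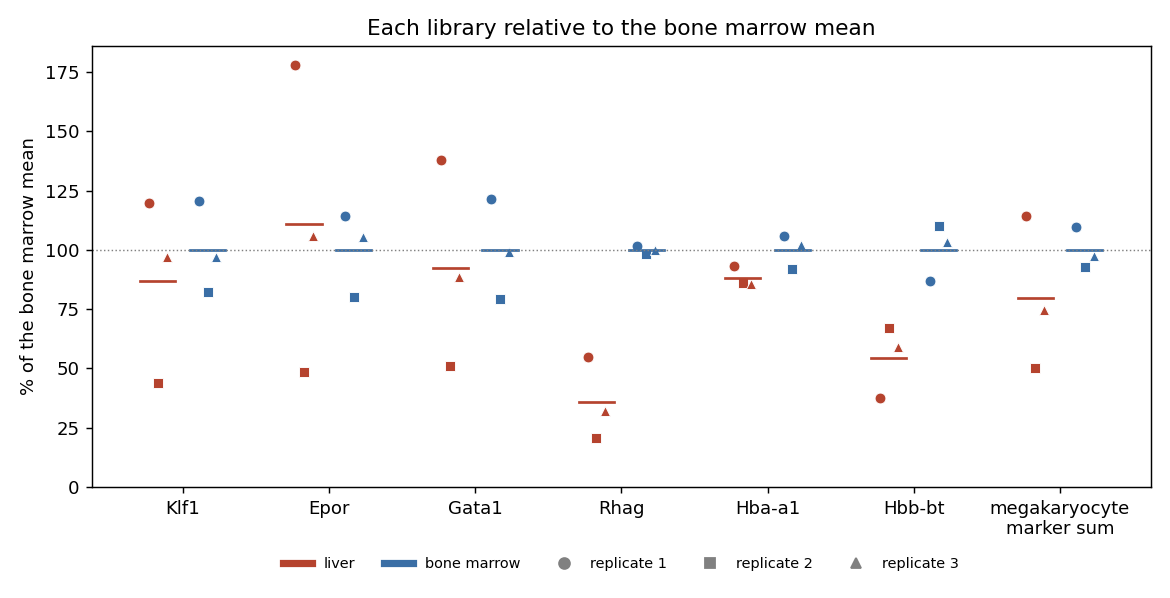
Level of 6 erythroid genes and of the summed megakaryocyte and platelet markers in each library, as a percentage of the bone marrow mean of that gene or sum (dotted line at 100). Liver is red and bone marrow blue, symbols give the replicate number and lines the mean of 3 libraries. In liver, Klf1, Epor, Gata1, Rhag and the marker sum are highest in replicate 1 and lowest in replicate 2, while Hbb-bt is lowest in replicate 1.

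Per kilobase of annotated exon length, the levels ranked Hbb-bt, Hba-a1, Klf1, Epor, Rhag, Hbb-bs, Hba-a2, Alas2 and Ermap in liver. Hbb-bt averaged 3498 normalized counts per kilobase there, Hba-a1 1653 and Klf1 267.0. Neighbours from Klf1 to Hba-a2 overlapped in their library ranges and could not be ordered. In bone marrow the order was Hbb-bt with 6413, Hba-a1 with 1875, Rhag with 311.1, Klf1 with 307.2, Hbb-bs with 214.4, Epor with 119.3, Hba-a2 with 88.2 and Alas2 with 6.92 normalized counts per kilobase. There the ranges of Rhag and Klf1 overlapped, as did those of Klf1 and Hbb-bs. In liver Epor averaged 132.3, Rhag 111.6, Hbb-bs 73.5, Hba-a2 59.0 and Alas2 7.02. The exon lengths are those of GENCODE M21 and need not be those used for counting. Reads that match both globin copies may also be missing from the counts.

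The wider erythroid program was described from 7 lists of genes, of which 103 genes other than the members were tested. Of these, 1 rose and 3 fell in liver in limma, 3.88% of those tested, beside 1.01% of all genes (0.42% higher and 0.594% lower in liver), and 99 did not pass. Their median log2 fold change was -0.03, beside -0.01 over all 14298 genes. The tissues did not overlap in 26.2% of them, beside 22.3% of all genes. In 18.4% they did not overlap and liver was lower, beside 10.9% of all genes. E2f2, a transcription factor of the cell cycle, rose, with 280.6, 307.0 and 285.4 normalized counts in liver against 171.5, 147.3 and 153.2 in bone marrow (log2 fold change 0.89 ± 0.12 SE, limma adjusted p = 0.035). Sox6, a repressor of embryonic globin genes in mouse, fell to 113.6, 119.4 and 80.7 in liver, against 302.6, 210.6 and 239.4 in bone marrow (-1.26 ± 0.21 SE, limma adjusted p = 0.048). Neither gene overlapped between the tissues.

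The other 2 genes that fell encode enzymes. Ube2l6, which conjugates the interferon-induced modifier ISG15, stood at 906.0, 729.2 and 828.5 normalized counts in liver, against 1353, 1335 and 1293 in bone marrow (log2 fold change -0.70 ± 0.091 SE, limma adjusted p = 0.027). Car2, a cytosolic carbonic anhydrase of red cells, held 9394, 8741 and 9230 in liver, against 11161, 12442 and 11678 in bone marrow (-0.37 ± 0.056 SE, limma adjusted p = 0.040). The 4 calls depended on single libraries, as did the number called over all genes, 145 with all 6 libraries. All 4 were kept without liver replicate 1, when 10 genes of the lists and 433 of all genes passed. Ube2l6 alone was kept without liver replicate 2, when 86 of all genes passed. Without liver replicate 3 or bone marrow replicate 1, 2 or 3, 0 list genes passed. In these fits 8, 11, 17 and 6 of all genes passed. The log2 fold changes of the 4 genes kept their direction in each leave-one-out fit. DESeq2 called 13 genes of the lists, 3 higher and 10 lower in liver, and 622 of all genes.

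**Figure D5:**
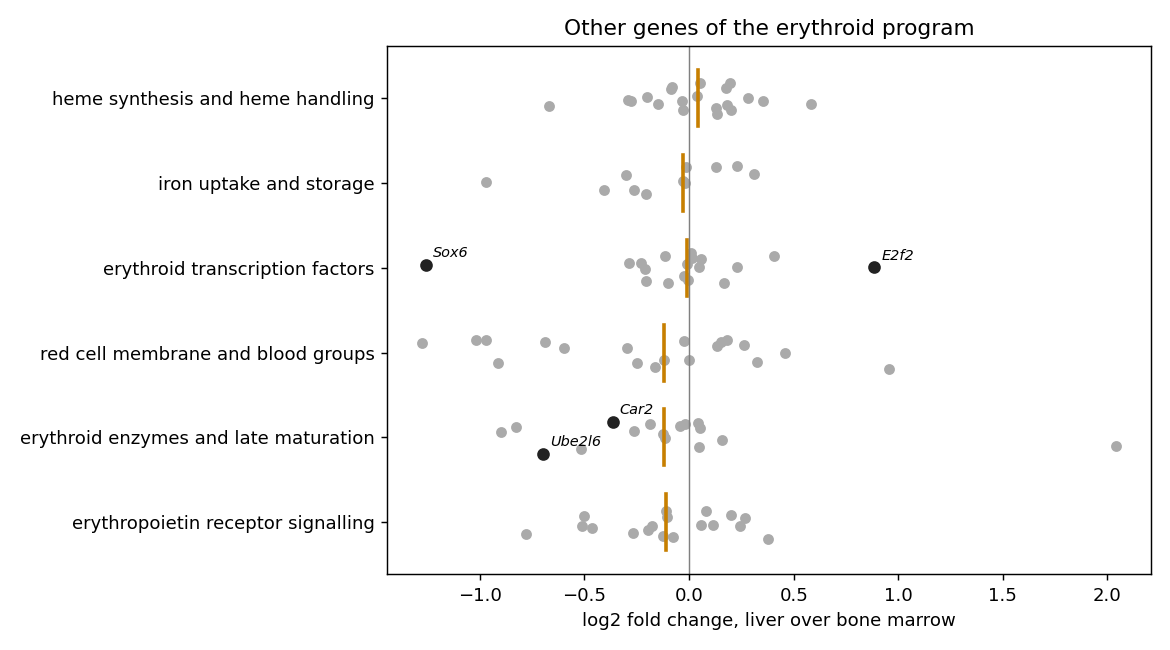
Log2 fold change of liver over bone marrow for each tested gene of 6 lists of the erythroid program, the globin list having 1 tested gene and not being drawn. Black points with names passed the limma test, grey points did not, and orange bars are list medians, which lie between -0.12 and 0.04.

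Of 20 tested genes of heme synthesis and handling 0 passed, with a median log2 fold change of 0.04. Among its genes averaging at least 50 normalized counts, the largest differences were for Blvrb, a biliverdin reductase, with 187.4 normalized counts in liver and 299.3 in bone marrow (-0.67 ± 0.18 SE, limma adjusted p = 0.14), Cpox, a late heme synthesis enzyme, with 1154 and 888.7 (0.35), and the porphyrin exporter gene Abcg2 with 708.0 and 850.8 (-0.29). Of 11 iron genes 0 passed (median -0.03). Ftl1, the ferritin light chain, averaged 14659 in liver and 18083 in bone marrow without overlap (-0.30 ± 0.059 SE, limma adjusted p = 0.069), Aco1, which is also an iron regulatory protein, 569.5 and 752.9, and the transferrin receptor gene Tfrc 1228 and 1005.

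Of 18 erythroid transcription factors, E2f2 rose, Sox6 fell and 16 did not pass (median -0.01). Klf3, a repressor related to Klf1, averaged 155.4 normalized counts in liver and 117.4 in bone marrow (0.41 ± 0.22 SE, limma adjusted p = 0.44). Among 19 tested red cell membrane and blood group genes 0 passed (median -0.12). Kel, the Kell blood group protein, held 57.3, 14.2 and 26.5 in liver, all below the 70.0, 78.8 and 60.2 of bone marrow (-1.28 ± 0.47 SE, limma adjusted p = 0.26). The tetraspanin gene Tspan33 (-1.02) and Sptb, erythroid beta spectrin (-0.91), overlapped between the tissues and were lowest in liver replicate 2, at 41.2 and 25.6.

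Of 16 enzymes and late maturation genes, Ube2l6 and Car2 fell and 14 did not pass (median -0.12). Car1, a second carbonic anhydrase of red cells, averaged 895.1 normalized counts in liver and 1583 in bone marrow (-0.83 ± 0.20 SE, limma adjusted p = 0.11), without overlap, and Tspo2 67.5 and 122.1. In the list of erythropoietin receptor signalling 0 of 18 tested genes passed (median -0.11). Its largest differences were in Socs1 (816.2 in liver and 1340 in bone marrow, -0.78 ± 0.27 SE, limma adjusted p = 0.23), Gab2, an adaptor protein gene (829.5 and 1174, -0.51), and Cish (5024 and 7008, -0.50). Socs1 and Cish encode feedback inhibitors of cytokine receptors, and all 3 were lower in each liver library than in any bone marrow library. The kinase gene Jak2 averaged 1828 in liver and 1967 in bone marrow, chosen after its values were seen, and Epo itself had 0 reads.

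The genes whose log2 level followed that of Klf1 most closely over the 6 libraries were Glipr1l1, RP23-156P22.5, Ctnnal1, Adamts20 and Dock8, with Pearson r between 0.988 and 0.997. The genes closest to summed adult globin were Nob1, RP23-185P17.2, Fcer1a, B2m and Rab38, with r between 0.992 and 0.998. With 6 libraries and 14298 genes these values are a description only, and all points share the same libraries and size factors.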

How the data were processed

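Per the labels' protocols, RNeasy Plus was used for RNA and SMARTer with Nextera XT for low-input libraries. The deposited signal per gene and library is a read count scaled by the authors with a DESeq2 size factor for each library, per the table's name and the submitters' processing notes. These list STAR 2.6.0c, Trimmomatic 0.36, R 3.4.1, bcl2fastq 2.19.0 and DESeq2 1.16.1. The sources used here do not give the read counter, build or annotation. Values were whole multiples of the smallest value in 100% of cases (tolerance 0.01), so reads were recovered.

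log2(normalized count + 1) was fitted on tissue alone by limma 3.58.1 (R 4.3.3) for the 14298 genes averaging 10 or more normalized counts, with trended variance and two-sided tests with Benjamini-Hochberg adjustment over all of them. The added 1 shrinks the fold changes of low genes. They were not always smaller than those of edgeR and DESeq2, as for Hba-a2 with -0.67 in limma against -0.56 in both. edgeR 4.0.16 (135 genes called) and DESeq2 1.42.0 (622) were run on the recovered reads, and the fit was tested on simulated data. Members and lists were chosen with earlier results of these data known. Named genes are the members, list genes that passed, the up to 3 largest differences per list at a mean of at least 50, the 5 genes most like Klf1 and like summed globin, and the 2 highest markers per list. Libraries of a tissue differed beyond sampling noise (chi-square per degree of freedom 6.75 to 27.8). A mix of replicates 1 and 2 would also differ from each, so this cannot decide whether replicate 3 is independent. The libraries were kept as 3 samples, although the independence of replicate 3 is open. Limits of 3 reads cover counting error only. Positions and exon lengths are from GENCODE M21 (GRCm38), matched by symbol. Figures were drawn with matplotlib 3.10.9. Some genes of the lists are not reported here.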

Additional observations from a re-analysis of the deposited data

How the results depend on the processing

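With 0 members past the threshold in limma, DESeq2 gave 3 and leaving out 1 library 0 to 2, the 2 being without liver replicate 1. Over all genes DESeq2 called 622. The fits without 1 library called from 6 (without bone marrow replicate 3) to 433 (without liver replicate 1). Adding the replicate number as a block gave 3 members (Hbb-bt, Hbb-bs and Rhag), 12 list genes and 525 genes in all, against 145. With the block and without both replicate 3 libraries, 0 members and 16 genes in all passed (adjusted p = 0.11 for Hbb-bt, 0.25 for Hbb-bs, 0.25 for Rhag and 0.093 for the beta globin sum, limma). Same-numbered libraries deviated from their tissue means with correlations of 0.44, 0.40 and 0.06. Liver replicate 1 with bone marrow replicate 2 gave -0.44, and liver replicate 2 with bone marrow replicate 1 -0.38. Liver replicate 3 correlated best with bone marrow replicate 2 (0.15). No label pairs the libraries, so the main fit did not take the numbers as pairs. Replicate 3 held sex-linked transcripts of both kinds, so its correlations cannot decide whether they are. The sex-linked transcripts match by number across the tissues, which is a hint from the data, not the design. The beta globin sum passed with DESeq2 (log2 fold change -0.89), with the replicate block (-0.93) and without liver replicate 1, and ranged from -0.68 to -1.09 over leave-one-out fits. Beside 4 list genes called in limma, DESeq2 gave 13, leaving out 1 library 0 to 10, and leaving out both replicate 3 libraries 0, with or without the replicate block (the fit with both changes was chosen after seeing the data). Over leave-one-out fits Klf1 ranged from -0.60 to 0.13, Epor from -0.46 to 0.47 and Alas2 from -0.25 to 0.73. The direction turned for Klf1 without liver replicate 2 (0.13), for Alas2 without bone marrow replicate 2 (-0.25), and for Epor with edgeR (0.16), DESeq2 (0.15), thinning to equal depth (0.021), and without liver replicate 2 (0.47), bone marrow replicate 1 (0.08) or bone marrow replicate 3 (0.02). The causes were not tested. TMM factors, pseudocounts of 0.5 and 10, no filter and a mean of at least 50 changed no call or direction of a member, the last leaving Hba-a2 and Alas2 without a test. Ermap has too few reads for any of these fits to bear on it.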

Other observations

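Alox15, the reticulocyte 15-lipoxygenase gene of the late maturation list, chosen after its values were seen, had the largest positive difference of any tested list gene. It stood at 38.5, 37.0 and 26.5 normalized counts in liver, against 5.39, 7.71 and 9.67 in bone marrow, without overlap between the tissues. The log2 fold change was 2.04 ± 0.39 (SE, limma adjusted p = 0.067), which did not pass. The progenitor receptor gene Kit, which acts with the erythropoietin receptor in early erythroid cells, averaged 652.3 in liver and 511.4 in bone marrow and did not pass (limma adjusted p = 0.32). It was chosen after its values were seen, and bone marrow replicate 1, with 653.6, lay within the range of the 3 liver libraries.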
